A study of Mus musculus with 6 samples.

Results

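The oligoadenylate synthetase (OAS) family was read out in medullary thymic epithelial cells (mTEC), the thymic stromal cells that show tissue-restricted antigens to developing T cells. Its 8 members here are Oas1a, Oas1b, Oas1c, Oas1g, Oas2, Oas3, Oasl1 and Oasl2, taken by symbol from a table of 43432 Ensembl gene IDs. RNA sequencing counts were available for 3 MUT libraries, from CopaE241K/+ mice, which carry 1 mutant copy of Copa, and 3 WT libraries, from Copa+/+ mice. All mice were C57BL/6 and aged 4 weeks after birth. Copa encodes part of COPI, the coat of vesicles that return proteins from Golgi to endoplasmic reticulum, and the series asks how the mutation acts on STING and thymic type I interferon. The labels do not say whether a library holds the cells of 1 animal or of several, so the p-values below measure the spread between libraries, part of which may be technical.

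OAS enzymes bind double-stranded RNA and join ATP into 2′,5′-linked oligoadenylates (2-5A), which serve as a second messenger of the antiviral response. The genes are classic targets of type I interferon, whose receptor sends a complex that contains Stat2 and Irf9 to an interferon-stimulated response element (ISRE) near their start sites. In mice the family has branched: Oas1a, Oas1g, Oas2, Oas3 and Oasl2 are enzymes, whereas Oas1c and Oasl1 are known as proteins without synthetase activity, and C57BL/6 mice carry a truncated Oas1b.

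All members lie on chromosome 5 (GENCODE M21, GRCm38). Oas2, Oas3, Oas1c, Oas1b, Oas1g and Oas1a share a cluster of 191.3 kb with 4 further Oas1 genes, and the Oasl2-Oasl1 pair spans 41.0 kb at a distance of 5.79 Mb. Oas1b (120812635 to 120824163, plus strand) is annotated as a polymorphic pseudogene, with an open reading frame of 753 bases in its protein-coding transcript against 1128 bases in its longest form, and 1101 bases in Oas1a. Its start lies 121 bases from that of Oas1c (120800194 to 120812514, minus strand), and the genes point away from each other.

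Start sites are shown first because the ISRE is the element through which the family is known to be induced. RefSeq windows (GRCm38.p6, 250 bases before to 50 after the start) were held for 6 of the 8 members: Oas1a, Oas1c, Oas1g, Oas3, Oasl1 and Oasl2. The ISRE core, read as GAAA, any 2 bases and GAAA, was searched on both strands, overlaps allowed, and was present in 4 of these 6 windows and in 3.43% of all 32817 windows. A longer form, the core followed directly by CT and so overlapping it, was chosen after the first search. It was present in 3 of the 6 and in 0.271% of all windows. These 3 matches lie in an identical run of 16 bases, so they are not independent occurrences to set beside that share. The stretches around the matches follow, in lower case, with the run of core matches in capitals.
Oas1a, chr5:120907505-120907570, minus strand: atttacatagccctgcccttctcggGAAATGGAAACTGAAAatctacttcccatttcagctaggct
Oas1g, chr5:120887591-120887656, minus strand: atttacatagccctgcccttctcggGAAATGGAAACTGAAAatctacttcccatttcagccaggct
Oas1b side, chr5:120812588-120812653, plus strand: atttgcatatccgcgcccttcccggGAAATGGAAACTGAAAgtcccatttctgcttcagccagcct
Oas1c side, the same bases on the minus strand: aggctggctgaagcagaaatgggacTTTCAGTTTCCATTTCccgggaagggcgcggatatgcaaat
Oas3, chr5:120777700-120777759, minus strand: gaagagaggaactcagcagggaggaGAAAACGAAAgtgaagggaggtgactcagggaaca

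The Oas1a and Oas1g stretches differed at 1 of 66 bases, and their capital run of 16 bases was the same. The same 16 bases stood on the plus strand between Oas1c and Oas1b, at positions -22 to -7 from the Oas1b start, close to the -20 to -5 of Oas1a and the -18 to -3 of Oas1g. From the Oas1c start the run sat at -114 to -99, on the opposite strand. Of 32817 windows 7 held the run on either strand, and they belonged to 5 genes: Oas1a, Oas1c, Oas1g, Apol9a and Apol9b. The Oas3 window held a single core match at -75 to -66, with other bases at the free positions. The Oasl1 and Oasl2 windows, shown whole because these are the members whose genotypes stood farthest apart relative to their error, held no match on either strand.
Oasl1, chr5:114922990-114923289, plus strand: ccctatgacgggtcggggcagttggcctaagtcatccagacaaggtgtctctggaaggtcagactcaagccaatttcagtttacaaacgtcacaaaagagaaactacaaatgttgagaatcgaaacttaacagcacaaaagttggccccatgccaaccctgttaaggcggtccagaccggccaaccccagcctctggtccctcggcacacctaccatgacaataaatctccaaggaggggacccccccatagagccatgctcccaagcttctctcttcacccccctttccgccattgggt
Oasl2, chr5:114896684-114896983, plus strand: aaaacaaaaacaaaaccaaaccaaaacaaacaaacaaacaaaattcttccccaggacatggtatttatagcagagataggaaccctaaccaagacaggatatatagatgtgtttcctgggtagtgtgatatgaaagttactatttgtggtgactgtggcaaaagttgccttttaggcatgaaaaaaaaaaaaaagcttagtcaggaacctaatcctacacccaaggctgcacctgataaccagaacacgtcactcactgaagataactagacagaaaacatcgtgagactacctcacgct

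A match is a description of these letters and not of binding. The missing matches say nothing of elements outside the windows, or of elements inside them that differ from the searched letters.

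**Figure D1:**
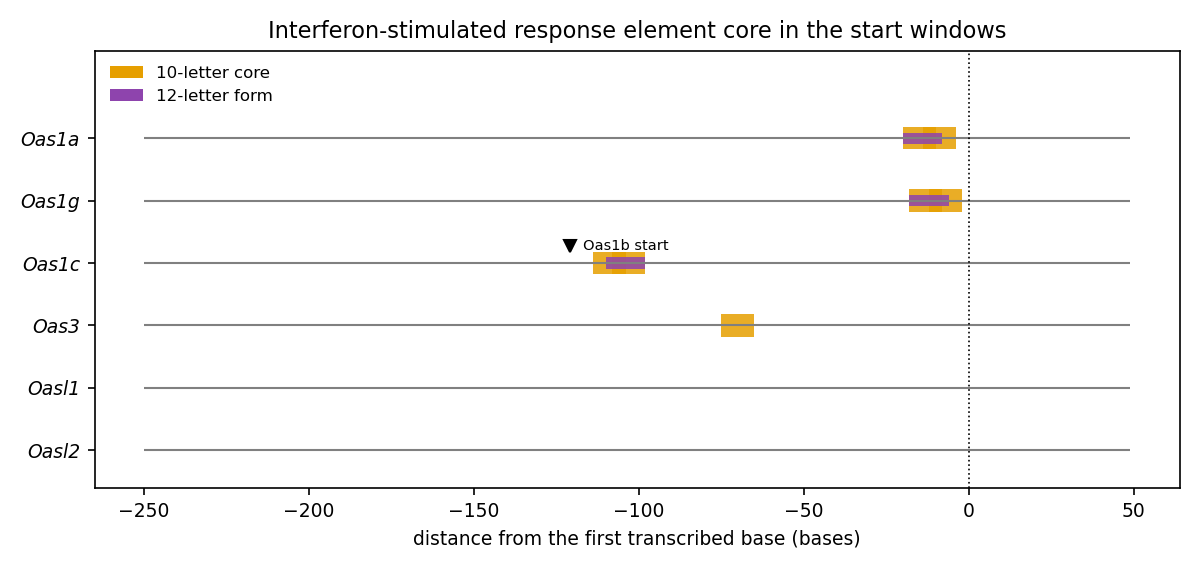
Position of the ISRE core (orange, 10 letters) and its longer form (purple, 12 letters) in the 300-base start window of each member that has one, in bases from the first transcribed base at 0; grey lines are the windows. Matches lie just before the start in Oas1a and Oas1g, beside the Oas1b start (triangle) in the Oas1c window, and at -75 to -66 in Oas3, while the Oasl1 and Oasl2 windows have none.

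Library totals ran from 21218363 to 23366238 counts in MUT and from 19934513 to 22880945 in WT, and since sequenced reads are not separate molecules, any counting limit given covers counting error only. The mTEC marker list (Epcam, Aire, Krt5, Krt14, Fezf2, Cd80, Tnfrsf11a and H2-Aa) summed to 9390 to 11000 CPM (counts scaled to library size, with TMM factors) in MUT and 9950 to 12500 CPM in WT. Most of this sum came from H2-Aa, so it says little of the other markers, and no marker was at 0 in either genotype. The myeloid marker Lyz2 measured 494.5, 635.9 and 384 CPM in MUT libraries, against 445, 721.6 and 387.3 CPM in WT libraries. Which cells its reads came from was not tested. Epcam was lower in every MUT library, at 417.8, 441.4 and 593.2 CPM in MUT libraries, against 628.7, 641 and 751.2 CPM in WT libraries, and its part in the results was not tested. Genes with at least 1 count numbered 19329, 20188 and 24774 in MUT libraries and 17174, 19558 and 21755 in WT libraries, so WT library 1 held the fewest and MUT library 3 the most. In bulk libraries fewer cells of a type and less RNA per cell cannot be told apart. The spread was large: edgeR's quasi-likelihood test called 0 of 17172 genes at an adjusted p of 0.05 (0% of genes tested), the lowest adjusted p was 0.999875, and the median standard error (SE) of a log2 fold change was 1.03.

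Members of the OAS family differed in how they stood between the genotypes. Oasl2, Oasl1 and Oas1a were higher in every MUT library than in any WT library, Oas1b, Oas1c, Oas1g and Oas3 had higher MUT means with overlapping libraries, and Oas2 had the lower MUT mean. No member passed the adjusted threshold. Genotypes did not overlap for 3 of 8 members, all higher in MUT, and 0 were lower, against 5.39% of all genes tested higher, 3.96% lower and 9.35% in either direction. At an unadjusted p under 0.05 there were 2 members, Oasl2 and Oasl1, both higher in MUT, against 1.62% of all genes in that direction and 3.48% in either. Fitted log2 fold changes (MUT minus WT) lay above 0 for 7 of 8 members, with a median of 1.09, beside 49.4% of all genes and a median of -0.01. All 8 passed the filter on low counts, Oas1b and Oas1c only with the help of their MUT libraries, so these counts describe the family and do not test it.

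**Figure D2:**
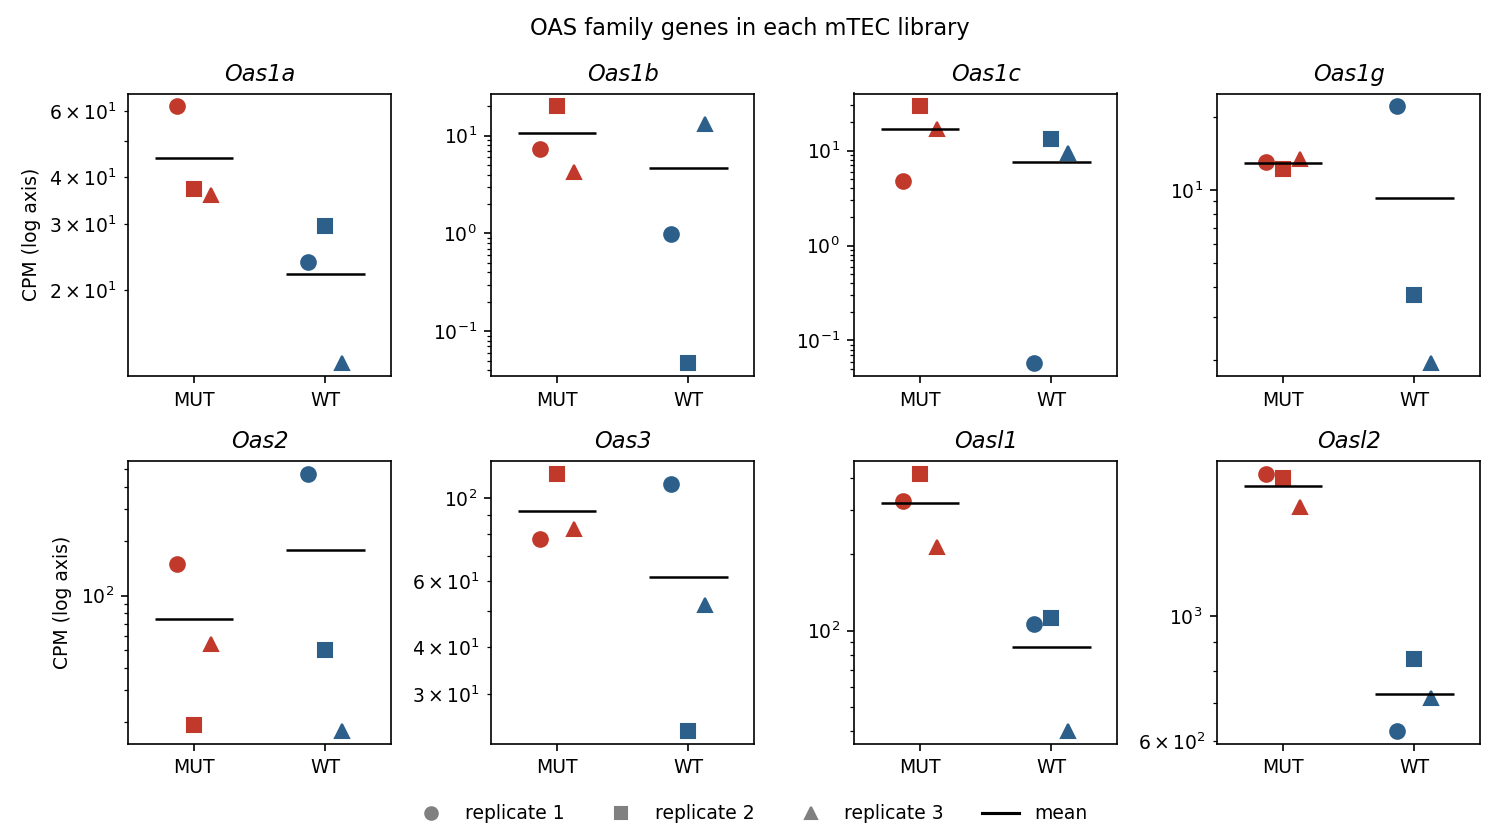
CPM of each member in each library (log axis, scales differ between panels), MUT in red and WT in blue, with the marker shape giving the replicate number and a black line the mean of 3 libraries. The MUT points of Oas1a, Oasl1 and Oasl2 all lie above their WT points; the other members overlap, and WT replicate 1 is the highest Oas2 point.

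The OAS-like genes were the most abundant members per exon length in MUT and had the smallest errors. Oasl2 (114896936 to 114912234), an active synthetase whose protein ends in ubiquitin-like repeats, measured 1795, 1767 and 1565 CPM in MUT libraries 1, 2 and 3, against 625.1, 838.6 and 716.4 CPM in WT libraries 1, 2 and 3. The lowest MUT library lay well above the highest WT library, and the MUT mean was 2.35 times the WT mean. The log2 fold change was 1.23 (SE 0.26), with an unadjusted p of 0.000481 and an adjusted p of 0.999875 in edgeR. Its unadjusted p ranked 4 among 17172 genes, and with any 1 library left out its log2 fold change stayed between 1.13 and 1.34.

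Oasl1 (114923240 to 114937915), known in mice to block translation of the interferon regulator Irf7, measured 326.4, 417 and 214 CPM in MUT libraries, against 105.9, 111.9 and 40.1 CPM in WT libraries. Its genotypes did not overlap either, and MUT library 3 and WT library 3 were the lowest of their groups. The log2 fold change was 1.89 (SE 0.45), with an unadjusted p of 0.00123 and an adjusted p of 0.999875 in edgeR, and it ran from 1.55 without WT replicate 3 to 2.12 without WT replicate 2. The ratio of Oasl1 to Oasl2 CPM was 0.182, 0.236 and 0.137 in MUT libraries and 0.169, 0.134 and 0.056 in WT libraries. These ratios overlapped between genotypes, and their mean log2 values differed by 0.74 (two-sided exact permutation p = 0.2, smallest possible 0.1), so a larger difference of Oasl1 than of Oasl2 was not shown.

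An antisense gene, Gm13822, overlaps exons of Oasl1 on the opposite strand. It had 224, 229 and 83 counts in MUT libraries, against 0, 0 and 18 in WT libraries, so its order between genotypes was that of Oasl1. With 0 counts in WT libraries 1 and 2, no fold is given, and it was singled out after its values were seen. The strand setting of the counting is not given in the sources used here. Reads of Oasl1 and Gm13822 therefore cannot be told apart where they overlap, and the Gm13822 counts may be reads of Oasl1. Gm13822 holds at most 229 counts in a library where Oasl1 holds 8706. Any overlapping reads left uncounted are in neither value.

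Among the Oas1 enzymes, Oas1a (120896256 to 120907521) measured 61.7, 37.2 and 35.9 CPM in MUT libraries, against 23.8, 29.8 and 12.8 CPM in WT libraries. Every MUT library lay above every WT library, by a narrow margin between MUT library 3 and WT library 2. Its log2 fold change was 1.02 (SE 0.63), with an unadjusted p of 0.134 and an adjusted p of 0.999875 in edgeR, and it ran from 0.72 without MUT replicate 1 to 1.28 without WT replicate 2.

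Oas1g (120876142 to 120887613), the close copy of Oas1a, measured 13.0, 12.3 and 13.5 CPM in MUT libraries, against 22.2, 3.72 and 1.94 CPM in WT libraries. The MUT libraries were tightly grouped, whereas WT library 1 exceeded all of them and the other WT libraries lay below. The log2 fold change was 0.48 (SE 1.14) and depended on single WT libraries: it was 2.19 without WT replicate 1, 0.09 without WT replicate 2 and -0.0023 without WT replicate 3. Transcripts of Oas1a and Oas1g were 97.5% identical over 1860 aligned bases, and 57.6% of the 50-base words of Oas1a also occurred in Oas1g, so their separate values are uncertain. Added together, the pair measured 74.7, 49.5 and 49.3 CPM in MUT libraries, against 46.0, 33.5 and 14.7 CPM in WT libraries. The sum does not depend on how counted reads were divided between the copies, but any shared reads left uncounted are missing from it. This sum was higher in 3 of 3 MUT libraries than in any WT library, by a narrow margin between MUT library 3 and WT library 1. Its difference in mean log2 CPM was 1.00 (two-sided exact permutation p = 0.1, the smallest possible). Genotypes without overlap always give this p, so it adds nothing to the order of libraries, and the sum was chosen after the data were seen.

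The divergent neighbours Oas1b and Oas1c varied widely between libraries, and each was down to 1 count in a WT library. Oas1b, whose intact form gives mice resistance to flaviviruses, had 156, 416 and 119 counts in MUT libraries, against 17, 1 and 297 counts in WT libraries. WT library 3 was higher than MUT libraries 1 and 3, so the genotypes overlapped. The log2 fold change was 1.16 (SE 1.63), 4.35 without WT replicate 3 and 0.30 without MUT replicate 2.

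Oas1c, which lacks synthetase activity, had 102, 611 and 473 counts in MUT libraries, against 1, 282 and 214 counts in WT libraries. Library 1 was the lowest in both genotypes, and the overlap came from MUT library 1. Its log2 fold change was 1.17 (SE 1.39), within 0.52 without MUT replicate 2 and 1.83 without WT replicate 2. Oas1b and Oas1c had near-equal fold changes but different orders of libraries. In WT library 3 their counts were 297 and 214, and in WT library 2 they were 1 and 282.

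Oas2 and Oas3 encode the larger synthetases, built from OAS units in tandem. Oas3 (120753098 to 120777661) measured 77.5, 115.8 and 82.7 CPM in MUT libraries, against 108.9, 24.0 and 51.9 CPM in WT libraries. WT library 1 lay within the MUT range, and the other WT libraries lay below it. The log2 fold change was 0.58 (SE 0.55), 1.27 without WT replicate 1 and 0.19 without WT replicate 2.

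Oas2 (120730333 to 120749853) measured 148.7, 19.3 and 53.9 CPM in MUT libraries, against 470.9, 50.3 and 17.9 CPM in WT libraries. Library 1 was the highest in both genotypes, and the range of CPM within each genotype exceeded the difference between the means. Its log2 fold change was -1.28 (SE 0.99), with an unadjusted p of 0.222 and an adjusted p of 0.999875 in edgeR, and it turned to 1.12 without WT replicate 1. In that library the plasmacytoid dendritic cell markers Siglech and Pacsin1 measured 13.2 and 29.0 CPM, against at most 2.64 and 6.25 CPM in any other library. The other 2 markers of that list were not highest there: Klk1 measured 155.9 CPM in WT library 1, against 289.8 CPM in MUT library 2, and Ccr9 measured 13.9 CPM, against 91.3 CPM in WT library 2. Over all 4 markers the sum was 55.7 to 359 CPM in MUT and 177 to 326 CPM in WT, with 211.9 CPM in WT library 1, and their part in the Oas2 result was not tested.

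Without WT library 1, members whose genotypes did not overlap numbered 5 of 8, all higher in MUT, with Oas1g and Oas3 added, beside 9.42% of all genes for the same libraries. Leaving out any other library gave 3 or 4 members, beside 9.66% to 12.7% of all genes. Summed markers of other cell types overlapped between genotypes: the 8 myeloid markers summed to 513 to 1060 CPM in MUT and 586 to 1040 CPM in WT, the 4 B cell markers to 18.7 to 73.2 CPM in MUT and 24.1 to 47.6 CPM in WT, and the 8 thymocyte markers to 116 to 678 CPM in MUT and 183 to 475 CPM in WT. Single markers without overlap were the myeloid Adgre1, at 1.73 to 12.3 CPM in MUT and 13.9 to 45.9 CPM in WT, the endothelial Esam, at 6.36 to 9.53 CPM in MUT and 1.04 to 3.05 CPM in WT, and the erythroid Hba-a1, at 5.75 to 8.96 CPM in MUT and 9.56 to 11.5 CPM in WT. Their part in the results was not tested.

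**Figure D3:**
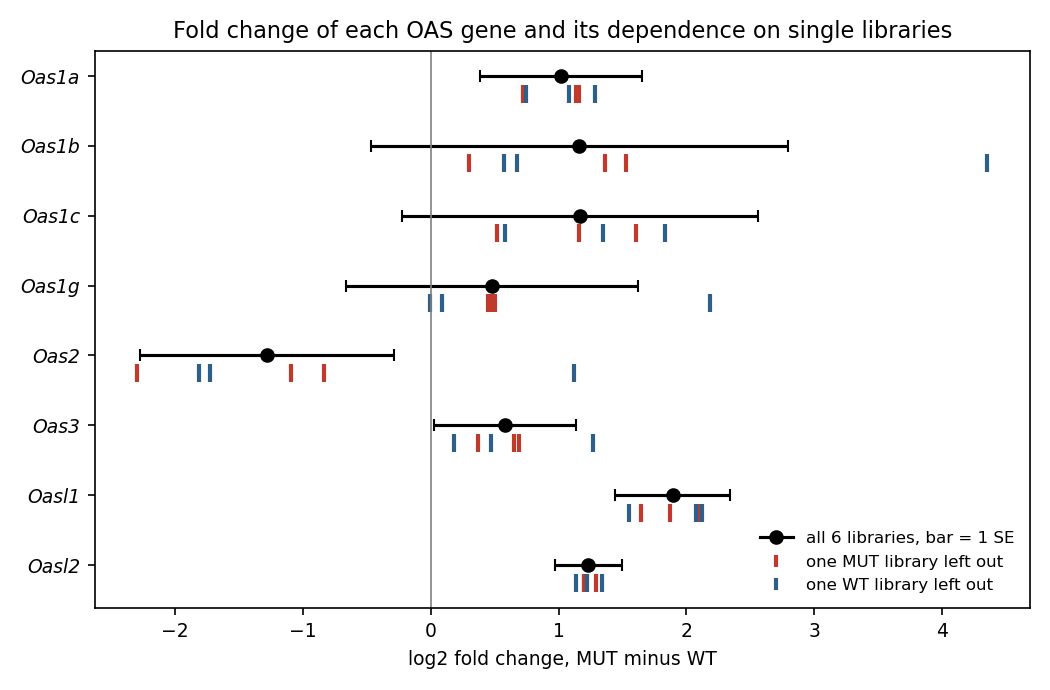
Log2 fold change (MUT minus WT) of each member with 1 SE (black), and its value with 1 MUT library (red ticks) or 1 WT library (blue ticks) left out. Oasl2 stays between 1.13 and 1.34 and Oasl1 between 1.55 and 2.12, whereas Oas2 crosses 0 to 1.12 without WT replicate 1 and Oas1b reaches 4.35 without WT replicate 3.

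Levels of different members were compared per exon length, as CPM divided by the length of the annotated exons in kb (RPKM). This length covers the exons of all annotated transcripts, 6374 bases for Oasl2, whose transcript with the longest reading frame has 3123. The places of Oas1a and Oas1g are uncertain, since only 42.4% and 45.3% of their 50-base words were unique in the family. In MUT the order of mean RPKM was Oasl2, Oasl1, Oas1a, Oas2, Oas3, Oas1c, Oas1g and Oas1b, with 268 ± 19.7 RPKM for Oasl2 and 122 ± 39.0 RPKM for Oasl1 (mean ± SD, n = 3). The first 3 places were separated beyond the spread of libraries, and from Oas1a downwards each neighbour in the order overlapped the next. In WT the order was Oasl2, Oas2, Oasl1, Oas1a, Oas3, Oas1g, Oas1c and Oas1b, with 114 ± 16.8 RPKM for Oasl2 and 40.4 ± 56.8 RPKM for Oas2 (mean ± SD, n = 3), and every neighbour overlapped the next. The second place of Oas2 in WT came from library 1, at 106 RPKM, where the other WT libraries held 11.3 and 4.01 RPKM. Oasl2 took 56.9%, 54.9% and 63.7% of the summed RPKM of the family in MUT libraries and 34.7%, 62.0% and 71.5% in WT libraries. Oasl1 took 25.3%, 31.7% and 21.3% in MUT libraries and 14.4%, 20.2% and 9.78% in WT libraries, with no overlap between genotypes. Each share also depends on the other members, and Oas2 took 37.4% in WT library 1, against 5.33% and 2.55% in WT libraries 2 and 3. The shares therefore do not show a gain of Oasl1 alone.

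**Figure D4:**
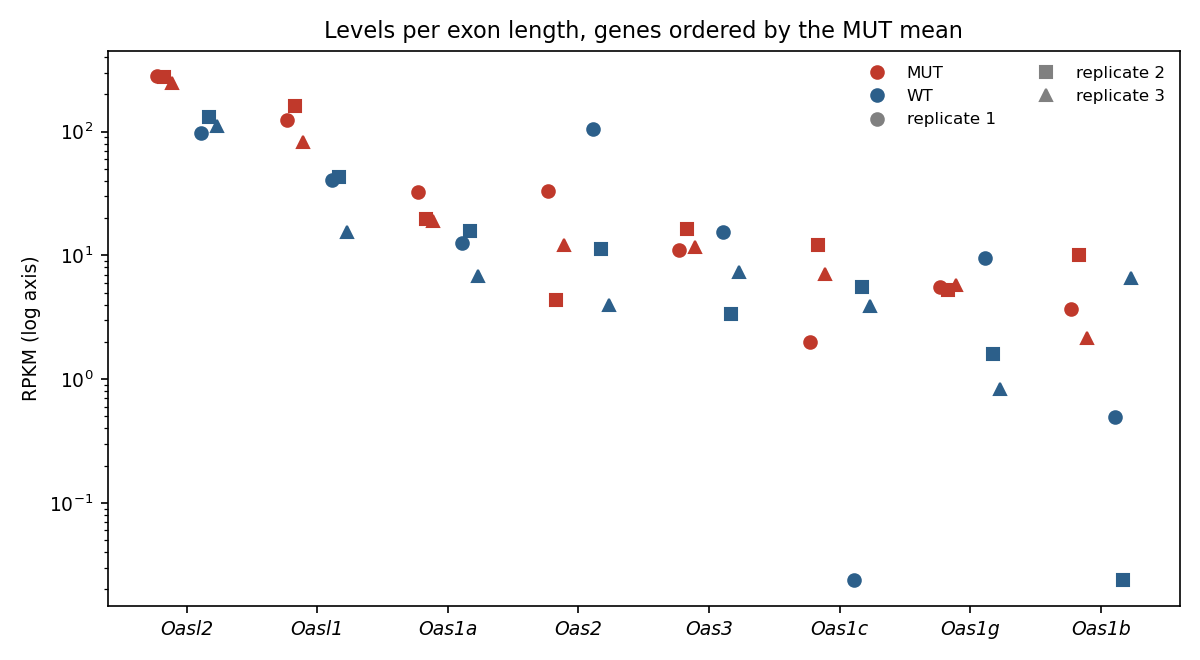
RPKM of each member in each library (log axis), ordered by the MUT mean, MUT in red left of WT in blue, marker shape giving the replicate number. Oasl2 and Oasl1 lead in MUT, and the lowest points, under 1 RPKM, are Oas1c in WT library 1, Oas1b in WT libraries 1 and 2 and Oas1g in WT library 3.

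The other Oas1 genes of the cluster had log2 fold changes near 0 or on both sides of it. Of Oas1d, Oas1e, Oas1f and Oas1h, all tested, 1 had a log2 fold change above 0 (Oas1h, 0.48), the median was -0.11, and genotypes overlapped for all 4. Oas1f had 88, 499 and 181 counts in MUT libraries, against 83, 460 and 363 counts in WT libraries, and its log2 fold change was -0.29 (SE 1.07), or 0.14 without WT replicate 2. Of the 12 nearest protein-coding genes flanking the clusters, 10 were tested and 0 passed the adjusted threshold; 4 lay above 0, with a median of -0.10. Genotypes did not overlap for 2 of these 10, Dtx1 and Rasal1, on the Oas2 side of the cluster, beside 5.39% of all genes higher in MUT. A further flanking gene, 4930519G04Rik, 13.1 kb from Oasl2, failed the filter on low counts, with 456, 185 and 7 counts in MUT libraries and 0 counts in each WT library. Dtx1, which encodes a Deltex ubiquitin ligase of the Notch pathway, measured 10.2, 22.0 and 7.26 CPM in MUT libraries, against 1.32, 7.02 and 2.95 CPM in WT libraries (log2 fold change 1.80, SE 1.23). The difference between members and these genes was not tested.

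**Figure D5:**
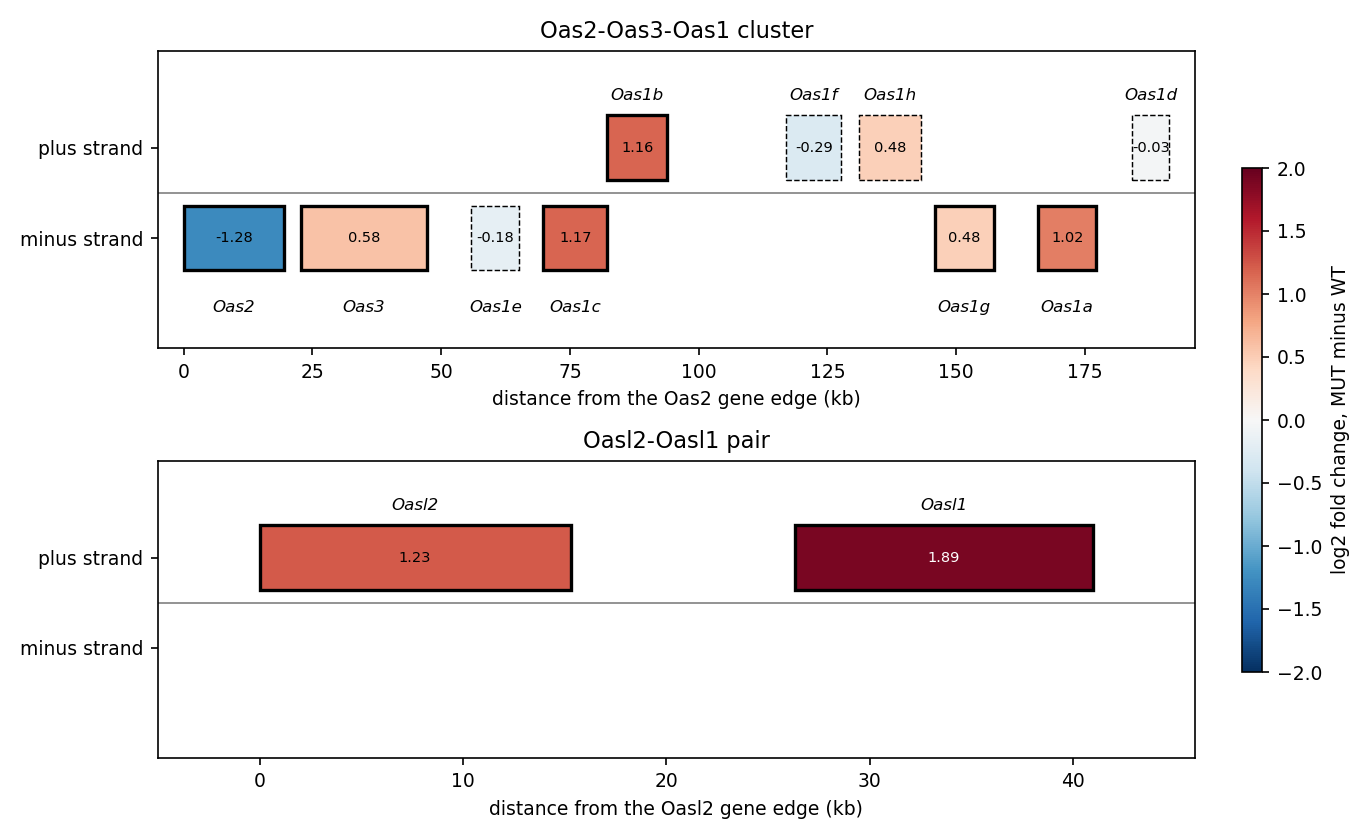
Map of the OAS genes on chromosome 5 in kb from the Oas2 or the Oasl2 gene edge, by strand, coloured and labelled by log2 fold change (MUT minus WT); solid outlines are members, dashed outlines the other Oas1 genes. Members range from -1.28 (Oas2) to 1.89 (Oasl1), and the other Oas1 genes from -0.29 to 0.48.

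Genes whose products act on 2-5A gave no call. Pde12, whose protein can degrade 2-5A, measured 34.3, 52.9 and 18.6 CPM in MUT libraries, against 3.91, 28.1 and 35.1 CPM in WT libraries. WT library 1 was the lowest and the genotypes overlapped, with a log2 fold change of 0.66 (SE 0.83) that was 0.16 once WT replicate 1 was left out. For Akap7, whose protein can also degrade 2-5A, the log2 fold change was 0.35 (SE 0.74), again with overlapping genotypes, and ran from -0.04 without WT replicate 3 to 0.68 without WT replicate 1.

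Other sensors of double-stranded RNA, the ligand that switches on the synthetases, were also measured. The list of 8 genes also held Mavs and Adar, which are not sensors themselves. Of 8 tested, 0 passed the adjusted threshold, 6 had a log2 fold change above 0, the median was 1.02, and genotypes did not overlap for 3, all higher in MUT, where the share over all genes was 5.39%. Ifih1, the gene of the sensor MDA5, measured 158.1, 255 and 215.5 CPM in MUT libraries, against 58.2, 124.4 and 114 CPM in WT libraries (log2 fold change 1.08, SE 0.40, and 0.81 to 1.27 with 1 library left out). Eif2ak2, the gene of the kinase PKR, measured 88.3, 94.6 and 63.6 CPM in MUT libraries, against 30.6, 36.2 and 42.5 CPM in WT libraries (1.17, SE 0.47, and 1.05 to 1.32). Zbp1, whose protein senses Z-form nucleic acid, measured 259.7, 253.6 and 145.2 CPM in MUT libraries, against 109.6, 111.2 and 45.9 CPM in WT libraries (1.30, SE 0.44, and 0.99 to 1.53). Each of these 3 genes was higher in every MUT library than in any WT library, as were Oasl2, Oasl1 and Oas1a. Tlr3 and Adar lay below 0. The sensor gene Tlr3 was at -0.835 (SE 0.70) with overlapping genotypes, and ran from -1.15 without WT replicate 3 to -0.13 without WT replicate 1. Adar, whose editing of double-stranded RNA limits its sensing, was at -0.37 (SE 0.63), but 1.01 without WT replicate 1, where it held 296.6 CPM.

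Genes of the signalling chain that induces the family showed no separation of genotypes. Of 10 tested, 4 had a log2 fold change above 0, the median was -0.11, and none passed the adjusted threshold or had non-overlapping genotypes. Stat2 was at -0.46 (SE 0.56), but 0.53 without WT replicate 1, where it held 415.5 CPM. Irf9, its partner at the ISRE, was at 0.21 (SE 0.45). Irf7, whose translation Oasl1 is known to block in mice, measured 226, 82.3 and 78.4 CPM in MUT libraries, against 232.7, 135.3 and 29.1 CPM in WT libraries, with a log2 fold change of -0.04 (SE 0.65) that ran from -0.72 without MUT replicate 1 to 0.66 without WT replicate 1.

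Members were alike over the 6 libraries in part. Pearson r of log2 CPM was 0.91 between Oas1a and Oasl1, 0.88 between Oasl1 and Oasl2 and 0.80 between Oas1a and Oasl2, but -0.87 between Oas1c and Oas2; all these values share the same 6 libraries and the difference between genotypes. The 5 genes closest to the mean standardised log2 CPM of the members, among 12729 other genes with a mean of at least 5 CPM, were Gm43302 (r = 0.994), Tmppe (0.982), Grid1 (0.971), Mid1 (0.965) and Mtmr3 (0.961). Gm43302, which has the highest r, measured 112.5, 110.8 and 94.6 CPM in MUT libraries, against 75.6, 64.8 and 61.0 CPM in WT libraries. Mid1, a microtubule-binding ubiquitin ligase, measured 28.5, 44.4 and 17.7 CPM in MUT libraries, against 13.8, 6.69 and 4.93 CPM in WT libraries. All 5 were higher in every MUT library than in any WT library, which selection by likeness favours, and none passed the adjusted threshold.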

How the data were processed

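The table the authors deposited holds raw, unscaled counts, a column for each of the 6 libraries and a row for each Ensembl gene. The submitters' processing notes list STAR 2.4.2a, DESeq2 1.26.0 and GRCm38 but give them no role. Which counter, annotation release and strand mode made the counts is not given in the sources used here. Per the labels' protocols, cDNA was made with Nugen Ovation and libraries were made with Nextera XT. Of 43432 gene IDs, 42462 matched a symbol. CPM and RPKM were computed here from the deposited counts, the RPKM with GENCODE M21 union exon lengths. Groups came from the sample titles.

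Counts were fitted with edgeR 4.0.16 (R 4.3.3; TMM, filterByExpr, robust quasi-likelihood F-test on genotype alone, Benjamini-Hochberg over 17172 genes). Alternatives were the replicate block, DESeq2 size factors, upper-quartile factors, no filter on low counts, at least 1 CPM in 3 libraries, DESeq2 1.42.0, limma-voom (limma 3.58.1) and each library left out. Adding Oas1a to Oas1g and the non-overlap counts without a library were chosen after seeing the data. The edgeR fit was also run on simulated data, and the outcome is not reported here. Similarity used Biopython 1.88 local alignments and 50-base words of GENCODE M21 transcripts. Named genes were the members, the listed pathway genes, the flanking genes and the 5 genes most alike; Gm13822 and the genes sharing the 16-base run were named after their values were seen. Members and lists were chosen with earlier results of these data known. Some genes of the listed pathways are not reported here.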

Additional observations from a re-analysis of the deposited data

How the results depend on the processing

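In edgeR 0 genes and 0 members were called at an adjusted p of 0.05, with 597 genes at an unadjusted p under 0.05. Both counts stayed at 0 with DESeq2 size factors, upper-quartile factors, the stricter filter, limma-voom and any 1 library left out. Without a filter edgeR called 73 genes and 2 members, Oasl1 (adjusted p 0.00691) and Oasl2 (adjusted p 0.034), and over all 13 alternatives the adjusted p of each ran up to 1. DESeq2 called 116 genes and 0 members, with Oasl2 at an adjusted p of 0.0524. The cause was not tested. The replicate numbers are not stated to pair libraries, although libraries with 1 number end alike in their source names, for a reason the labels do not state. The deviations of numbers 1, 2 and 3 correlated across genotypes at 0.1, 0.059 and 0.127, although each library correlated best with its own number across genotypes. With the replicate block in edgeR 1 gene and 0 members were called, and Oasl1 and Oasl2 each had an adjusted p of 0.334, against 0.999875 without it. The block and limma-voom gave log2 fold changes of 2.95 and 3.02 for Oas1b, 2.23 and 2.44 for Oas1c, 1.30 and 1.38 for Oas1g and -0.57 and -0.33 for Oas2, each over 1.5 times away from edgeR without the block. Within numbers 1, 2 and 3 Oas1c differed by 5.04, 1.13 and 0.85 in log2 CPM (MUT minus WT), so it was higher in MUT in 3 of 3. The value of 5.04 rests on 1 count in WT library 1. Oas1a, Oasl1 and Oasl2 were also higher in 3 of 3, Oas1b, Oas1g and Oas3 in 2 and Oas2 in 1. Over the 13 alternatives 6 members kept their sign. With 1 library left out the log2 fold change of Oas2 ran from -2.30 to 1.12, the highest without WT replicate 1, and that of Oas1g from -0.0023, without WT replicate 3, to 2.19. Members higher in MUT without overlap numbered 3 to 5 with 1 library left out, 5 without WT replicate 1, beside 9.42% to 12.7% of all genes. Oas1b in WT library 2 and Oas1c in WT library 1, at 1 count each, fell below 3 counts, which are 0.128 to 0.151 CPM of the library total, without TMM factors. Spread between libraries also limits these genes, whose SEs of 1.63 and 1.39 were the largest of the members.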
